A study of Mus musculus with 8 samples.

Results

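The 9 genes described here, *Gfap*, *Aqp4*, *Slc1a2*, *Slc1a3*, *Pla2g7*, *Apoe*, *Aldoc*, *Slc4a4* and *Gja1*, are genes by which astrocytes are commonly recognised in brain tissue. They were followed in cultures of mouse primary OPCs (oligodendrocyte precursor cells, which mature into the myelin-forming OLs). Their rows were found by symbol among the 23427 genes of the deposited expression table, and all 9 were present. The genes were chosen by earlier results of these same libraries, in which several of them stood higher in replicate 2 than in replicate 1. The gap between the replicate numbers is therefore given as a description, with no test.

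All 8 libraries came from wild-type C57BL/6J cells. Each culture began with OPCs of 3 pups aged 7 days, taken from the cortex and purified by immunopanning. Here lectin-coated dishes first take away unwanted cells and a dish coated with an antibody against PDGFRα then holds the OPCs. They were expanded in medium with PDGF-AA and CNTF, a cytokine that also acts on astrocyte precursors, and differentiated by taking PDGF-AA away and adding the thyroid hormone T3 (40 ng/mL). The groups were Day 0, Day 1, Day 2 and Day 3 of differentiation, with 2 replicates each, described in the study as independent experiments. The sample labels describe another, serum-containing medium, so the medium is uncertain. Values are FPKM, that is fragments scaled to transcript length and to library size, and depth, read from the steps between low values, ranged from 960000 to 1530000 fragments per library.

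Astrocytes and OLs are sister glial cells of the brain, and immunopanned OPC cultures can keep a few astrocytes or their precursors. Astrocytes are known for glial intermediate filaments, for clearing glutamate and potassium from around neurons, and for joining into networks through gap junctions. Some of the genes that serve these tasks are read in astrocytes almost alone, while others are also read in OPCs and other progenitors.

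The OL lineage markers fitted the labels. *Olig2*, a transcription factor of the lineage, lay between 122 and 263 FPKM, and *Sox10*, its partner in OL identity, between 367 and 579 FPKM in all 8 libraries. *Mbp*, which encodes a myelin protein, lay between 65.2 and 82.2 FPKM on Day 0 and between 8753 and 11945 FPKM on Day 3. *Pdgfra*, the receptor used for panning, was at 490, 78.2, 28.8 and 29.2 FPKM in replicate 1 on the 4 days. In replicate 2 it was at 396, 11.2, 5.39 and 6.53 FPKM. It was thus lower in replicate 2 on each day, on the log2 scale by 1.81 on average and least on Day 0. The part of this in the results that follow was not tested. The summed FPKM of 12 microglial markers was at most 5.74 in any library, that of 10 endothelial markers at most 3.31, that of 12 mural and fibroblast markers at most 4.69 and that of 5 ependymal markers at most 8.10. Of these genes, 8, 6, 4 and 2 were at 0 throughout.

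**Figure D1:**
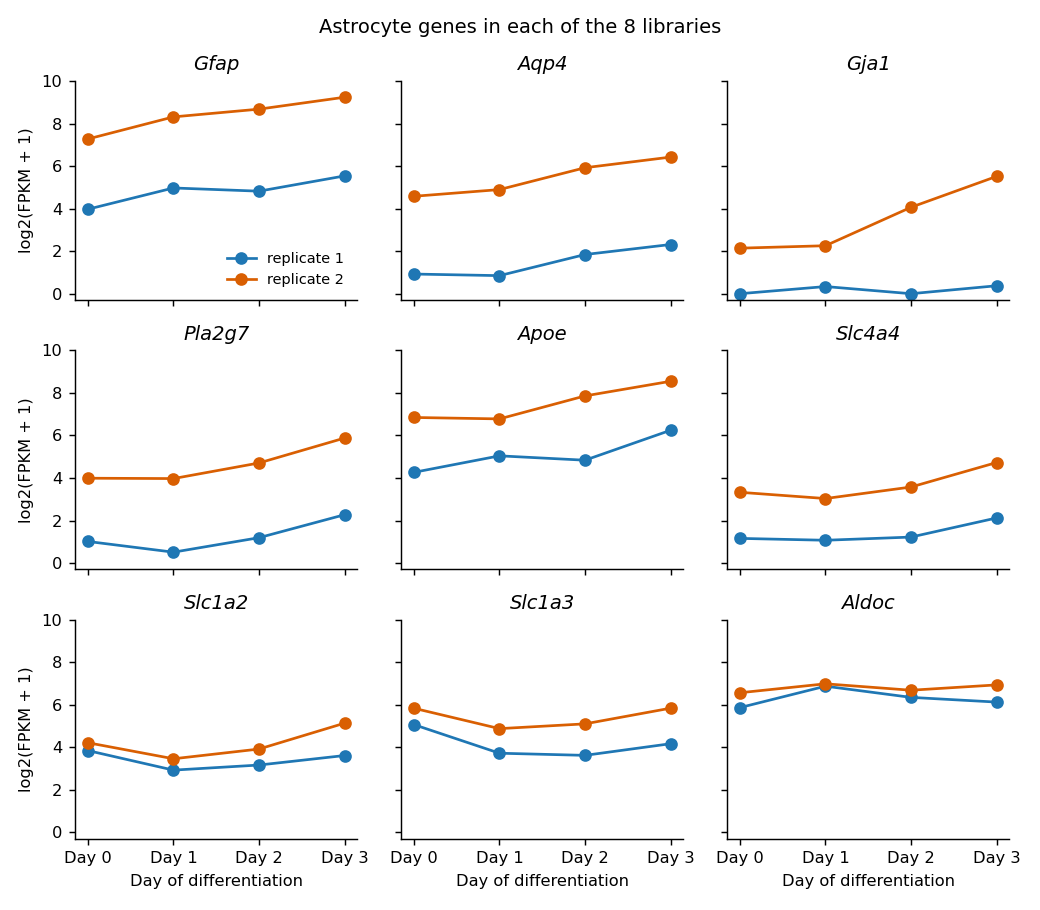
Level of each of the 9 genes, as log2(FPKM + 1), on the 4 days (horizontal axis), with 1 point per library and lines joining libraries of the same replicate number. In the upper 6 panels every replicate 2 library lies above every replicate 1 library, and in the lower 3 panels, *Slc1a2*, *Slc1a3* and *Aldoc*, the ranges of the replicates overlap although replicate 2 is higher on each day.

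The promoters of 4 of the genes are shown because the genes differed in their gap between the replicates. The replicates did not overlap for *Gfap*, *Gja1* and *Pla2g7*, and they did for *Slc1a3*. Each line holds the 250 bases before the annotated start from RefSeq (GRCm38.p6), 5′ to 3′ on the gene's own strand, in lower case. Capitals mark letters that match a motif on either strand. The motifs searched were the STAT motif TTCNNNGAA (the family through which CNTF signals), the NFI motif TTGGC, the SOX motif ACAAT and the AP-1 motif TGANTCA.
Gfap (chr11:102897201-102897450, minus strand): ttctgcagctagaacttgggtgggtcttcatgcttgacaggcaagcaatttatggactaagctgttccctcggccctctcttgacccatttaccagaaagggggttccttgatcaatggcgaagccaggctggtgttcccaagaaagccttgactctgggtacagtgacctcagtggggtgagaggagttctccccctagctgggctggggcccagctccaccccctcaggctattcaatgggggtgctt
Gja1 (chr10:56377050-56377299, plus strand): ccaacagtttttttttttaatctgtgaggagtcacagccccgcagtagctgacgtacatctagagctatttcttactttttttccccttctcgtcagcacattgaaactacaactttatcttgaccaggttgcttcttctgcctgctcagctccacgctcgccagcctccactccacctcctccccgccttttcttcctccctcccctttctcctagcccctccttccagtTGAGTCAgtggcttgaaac
Pla2g7 (chr17:43568201-43568450, plus strand): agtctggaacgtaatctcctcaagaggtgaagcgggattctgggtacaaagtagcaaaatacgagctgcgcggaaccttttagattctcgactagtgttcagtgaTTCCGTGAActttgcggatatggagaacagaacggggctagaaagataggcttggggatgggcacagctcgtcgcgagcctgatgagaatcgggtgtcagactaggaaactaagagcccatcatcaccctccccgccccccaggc
Slc1a3 (chr15:8710808-8711057, minus strand): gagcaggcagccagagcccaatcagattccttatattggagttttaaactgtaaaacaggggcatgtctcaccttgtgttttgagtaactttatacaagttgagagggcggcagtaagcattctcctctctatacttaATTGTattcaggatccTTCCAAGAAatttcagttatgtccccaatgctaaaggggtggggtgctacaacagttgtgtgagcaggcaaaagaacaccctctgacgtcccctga
The capitals mark an AP-1 match 19 bases before the start of *Gja1*, a STAT match 145 bases before that of *Pla2g7*, and a STAT match 96 and a SOX match 112 bases before that of *Slc1a3*. No letters of these motifs stood in the window of *Gfap*, and bases outside the 250 were not searched for any gene. Among all 32851 promoters of the same length, 7.02% held the STAT motif, 41.5% the NFI motif, 27.7% the SOX motif and 6.75% the AP-1 motif. RefSeq listed 12 promoters for 8 of the 9 genes and 3 of the 12 held the STAT motif, 6 the NFI motif, 3 the SOX motif and 1 the AP-1 motif. A match says only that the letters are there. The windows of *Gfap* and *Pla2g7* lie inside the gene spans given later, which come from GENCODE and begin at other starts.

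*Gfap*, which encodes the intermediate filament protein of astrocytes (chromosome 11, 102887336 to 102900912, minus strand, GRCm38), stood at 14.7, 30.4, 27.3 and 45.5 FPKM on Day 0, Day 1, Day 2 and Day 3 in replicate 1. In replicate 2 it stood at 154, 317, 409 and 603 FPKM. The replicates did not overlap, and the lowest value of replicate 2, on Day 0, was above the highest of replicate 1, on Day 3. Within each replicate number the level rose by a similar factor, 3.09-fold in replicate 1 and 3.92-fold in replicate 2 between Day 0 and Day 3. In bulk RNA, fewer cells of a type and less RNA per cell cannot be told apart.

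*Aqp4*, the water channel of astrocyte end-feet (chromosome 18, 15389496 to 15410982, minus strand), was close to the limit of what this depth can measure in replicate 1, at 0.898, 0.802, 2.58 and 3.97 FPKM. These values rest on 7, 5, 16 and 22 fragments. In replicate 2 the gene stood at 22.9, 28.8, 59.7 and 84.8 FPKM, from 143, 187, 404 and 413 fragments. The replicates did not overlap on any pair of days, and both rose, by 4.42-fold in replicate 1 and 3.70-fold in replicate 2 over the 3 days.

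*Gja1*, which encodes connexin 43, the main gap junction protein of astrocytes (chromosome 10, 56377330 to 56402513, plus strand), was all but missing in replicate 1. It had 0, 1, 0 and 1 fragments there on the 4 days, under the limit of 3 fragments that a count of 0 allows. In replicate 2 it had 13, 15, 65 and 133 fragments, or 3.41, 3.78, 15.7 and 44.7 FPKM, a 13.1-fold rise from Day 0 to Day 3. *Gja1* was at least 5.42-fold higher in replicate 2 on Day 0 and at least 19.8-fold higher on Day 2, set against 3 fragments. On Day 3, with 1 fragment in replicate 1, the ratio of replicate 2 to replicate 1 was 151 with an exact 95% interval of 26.7 to 6025, which covers counting error only.

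*Pla2g7*, which encodes a secreted phospholipase that hydrolyses platelet-activating factor (chromosome 17, 43568098 to 43612201, plus strand), rested on 3, 1, 3 and 8 fragments in replicate 1 (1.02, 0.426, 1.29 and 3.83 FPKM). In replicate 2 it rested on 35, 36, 64 and 106 fragments (14.9, 14.7, 25.1 and 57.8 FPKM). The replicates did not overlap. In replicate 2 the level was flat from Day 0 to Day 1 (0.988-fold) and stood 1.71-fold and 2.30-fold higher after each of the next steps.

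*Apoe*, which encodes the lipid carrier of the brain (chromosome 7, 19696109 to 19699188, minus strand), was at 18.2, 31.9, 27.6 and 74.7 FPKM in replicate 1. It was at 114, 109, 231 and 373 FPKM in replicate 2. The replicates did not overlap, and the rise was 4.10-fold in replicate 1 and 3.27-fold in replicate 2. *Apoe* stood above *Gfap* in every replicate 1 library and below it in every replicate 2 library.

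*Slc4a4*, a sodium bicarbonate cotransporter (chromosome 5, 88886818 to 89239653, plus strand), was low, at 1.23, 1.10, 1.33 and 3.35 FPKM in replicate 1. In replicate 2 it was at 9.04, 7.19, 10.9 and 25.5 FPKM, again without overlap. From Day 2 to Day 3 it stood 2.51-fold higher in replicate 1 and 2.33-fold higher in replicate 2, and the earlier steps were smaller, at 0.893-fold and 1.21-fold in replicate 1 and at 0.796-fold and 1.52-fold in replicate 2.

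The glutamate transporters took another course. *Slc1a2*, which encodes GLT-1 (chromosome 2, 102658659 to 102790784, plus strand), was at 13.4, 6.61, 7.99 and 11.3 FPKM in replicate 1 and at 17.6, 10.0, 14.1 and 34.2 FPKM in replicate 2. *Slc1a3*, which encodes GLAST (chromosome 15, 8634124 to 8710764, minus strand) and is also read in glial progenitors, was at 32.5, 12.2, 11.3 and 17.0 FPKM in replicate 1. In replicate 2 it was at 56.2, 28.4, 33.4 and 56.3 FPKM. Both genes were lower on Day 1 than on Day 0 in each replicate number, where *Gfap* was higher, and the replicates overlapped for both. From Day 0 to Day 3, *Slc1a3* ended at 0.522-fold of its start in replicate 1 and at 1.00-fold in replicate 2.

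*Aldoc*, the brain form of the glycolytic enzyme aldolase (chromosome 11, 78322968 to 78327781, plus strand), was high throughout. It was at 57.5, 116, 80.6 and 68.9 FPKM in replicate 1 and at 93.8, 126, 102 and 121 FPKM in replicate 2. The replicates overlapped, and on Day 1 replicate 2 stood only 1.08-fold above replicate 1. *Aldoc* was the gene of highest FPKM among the 9 in replicate 1 on Day 0, Day 1 and Day 2.

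Some of these values share a locus with another gene. *Gfap* overlaps the lincRNA *Gm26668*, *Slc1a3* the unclassified *Gm37310* on its own strand, and *Aqp4*, *Slc1a2* and *Pla2g7* each an antisense gene. Whether fragments were counted by strand is not given in the sources used here, so reads of these pairs cannot be told apart.

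Replicate 2 was above replicate 1 on 4 of 4 days for all 9 genes. Among the 12208 genes that reached 1 FPKM in 2 or more libraries, 7.63% were higher in replicate 2 on 4 of 4 days. The lowest replicate 2 library lay above the highest replicate 1 library for 6 of the 9 genes, against 1.39% of the genes tested. Since the 9 were chosen for this gap, the counts support nothing further. All 9 passed the filter on low values, *Gja1* through its replicate 2 libraries alone.

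The size of the gap differed widely among the genes. On the log2(FPKM + 1) scale the mean of the 4 daily differences was 3.97 ± 0.21 (SD over 4 days) for *Aqp4*, 3.55 ± 0.27 for *Gfap*, 3.39 ± 0.28 for *Pla2g7*, 3.32 ± 1.55 for *Gja1*, 2.41 ± 0.54 for *Apoe* and 2.27 ± 0.27 for *Slc4a4*. It was 1.27 ± 0.40 for *Slc1a3*, 0.79 ± 0.51 for *Slc1a2* and 0.49 ± 0.32 for *Aldoc*. *Aqp4* ranked first of all 12208 genes by this mean, *Gfap* 3, *Pla2g7* 5, *Gja1* 6, *Apoe* 18, *Slc4a4* 21, *Slc1a3* 98, *Slc1a2* 256 and *Aldoc* 591. The median of all genes lay between -0.05 and 0 on the 4 days, with an SD across genes of 0.49 to 0.62. With a pseudocount of 0.1 in place of 1, *Aqp4* ranked 10, *Gja1* 2 and *Pla2g7* 14, because the added constant weighs most on genes near 0. The mean difference of *Gja1* was then 5.67, so its size on either scale is set by the constant.

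A fixed ratio to *Gfap* would place a gene at the same share of the *Gfap* level in every library. No gene did so exactly. *Pla2g7* was at 6.95%, 1.40%, 4.72% and 8.42% of the *Gfap* FPKM in replicate 1 and at 9.67%, 4.63%, 6.14% and 9.58% in replicate 2. In both it was lowest on Day 1, when *Gfap* had risen and *Pla2g7* had not. At the replicate 2 share, replicate 1 would have held 4.18, 3.31, 3.91 and 9.10 fragments of *Pla2g7*, beside the 3, 1, 3 and 8 measured.

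*Aqp4* was at a lower share of *Gfap* in replicate 1 on each of the 4 days. The share was 6.11%, 2.64%, 9.48% and 8.73% in replicate 1 and 14.9%, 9.07%, 14.6% and 14.1% in replicate 2. At the replicate 2 share, replicate 1 would have held 17.1, 17.2, 24.7 and 35.5 fragments, beside the 7, 5, 16 and 22 measured.

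*Gja1* did not keep its share within replicate 2, where it was at 2.22%, 1.19%, 3.85% and 7.42% of *Gfap*. On Day 3 that share would have given 11.4 fragments in replicate 1, and 1 was measured. On Day 2 the replicate 2 share would have given 3.97 fragments in replicate 1, and 0 were measured. The 3 fragments that a count of 0 allows correspond to 2.91% of *Gfap* in that Day 2 library. On Day 0 and Day 1 the expected numbers were 1.55 and 1.38 fragments, so a difference in share was not detectable at this depth.

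*Apoe* lay between 101% and 164% of *Gfap* in replicate 1 and between 34.3% and 74.1% in replicate 2. *Slc4a4* was at 8.40%, 3.63%, 4.89% and 7.36% of *Gfap* in replicate 1 and at 5.87%, 2.27%, 2.67% and 4.22% in replicate 2. Both thus stood at a higher share in replicate 1 on each day.

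*Slc1a2*, *Slc1a3* and *Aldoc* did not follow *Gfap*. *Slc1a3* fell from 221% of *Gfap* on Day 0 to 37.4% on Day 3 in replicate 1 and from 36.5% to 9.35% in replicate 2. *Slc1a2* ranged from 3.16% to 91.1% over the 8 libraries and *Aldoc* from 20.1% to 391%.

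**Figure D2:**
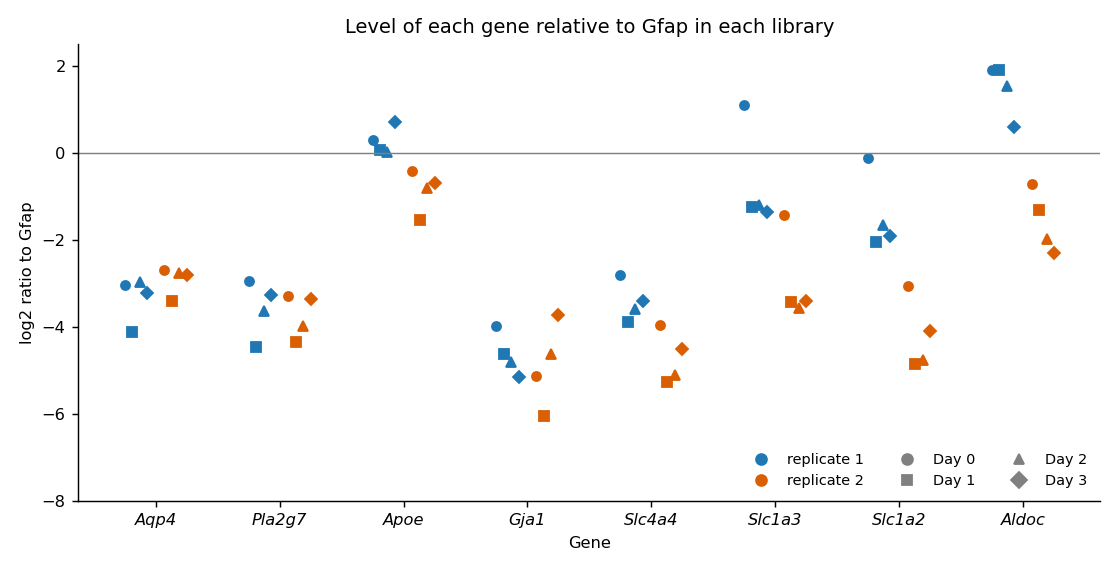
log2 ratio of each gene to *Gfap*, that is log2(FPKM + 1) minus that of *Gfap* in the same library (vertical axis), for 8 genes, with 1 point per library, replicate 1 to the left and replicate 2 to the right of each gene. *Aqp4* and *Pla2g7* keep the narrowest bands (1.43 log2 units over all 8 libraries for *Aqp4*), and *Slc1a2*, *Slc1a3* and *Aldoc* spread over 4.73, 4.67 and 4.21.

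The SD of the log2 ratio to *Gfap* over the 8 libraries put these shares on a scale for all genes. It was 0.47 for *Aqp4*, 0.55 for *Pla2g7*, 0.71 for *Apoe*, 0.73 for *Gja1* and 0.85 for *Slc4a4*. These were places 1, 2, 5, 7 and 10 among 12207 genes, whose median was 2.12. It was 1.59 for *Slc1a3*, 1.67 for *Slc1a2* and 1.75 for *Aldoc*, at places 159, 230 and 332. This measure rewards any gene with the same replicate gap as *Gfap*, whose own level had an SD of 2.02, so it is not independent of how the genes were chosen. Within replicate 1 alone the SD was 0.53 for *Aqp4*, 0.65 for *Pla2g7*, 0.31 for *Apoe*, 0.50 for *Gja1* and 0.46 for *Slc4a4*. Within replicate 2 it was 0.34, 0.51, 0.47, 0.98 and 0.61 in the same order. For *Slc1a3*, *Slc1a2* and *Aldoc* it was 1.19, 0.89 and 0.62 in replicate 1 and 1.02, 0.83 and 0.71 in replicate 2. *Apoe* was thus lowest in replicate 1 and *Aqp4* in replicate 2. The SD over all 8 libraries also depends on the added constant. With 0.1 in place of 1, *Slc4a4*, *Apoe*, *Aqp4*, *Pla2g7* and *Gja1* were at places 5, 6, 11, 15 and 96.

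**Figure D3:**
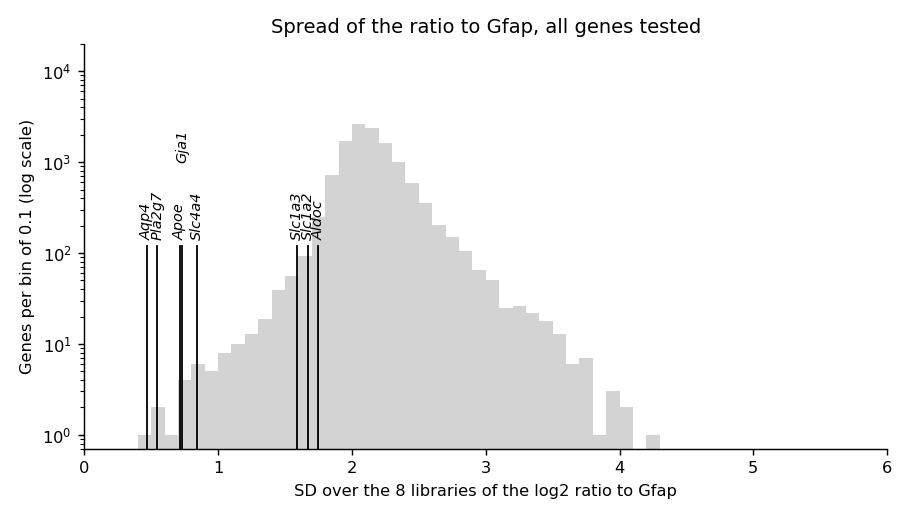
Number of genes (vertical axis, log scale) in bins of 0.1 of the SD over the 8 libraries of the log2 ratio to *Gfap* (horizontal axis), with lines at 8 astrocyte genes. *Aqp4*, *Pla2g7*, *Apoe*, *Gja1* and *Slc4a4* lie in the lowest tail. *Slc1a3*, *Slc1a2* and *Aldoc* lie nearer to the median of 2.12 but still below 1.82, under which 5% of all genes fall.

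Outside the 9 genes, those that reached 10 FPKM in a library and had a small SD included *Thy1* (0.62), *A2m* (0.73), *Scg2* (0.81) and *S1pr3* (0.85). *A2m*, a protease inhibitor, was at 10.5, 5.41, 10.2 and 18.3 FPKM in replicate 1 and at 49.9, 50.6, 74.1 and 155 FPKM in replicate 2. *Thy1* encodes a surface glycoprotein best known from neurons and *Scg2* a secretory granule protein, so the nearest genes were not astrocyte genes alone. Ranked instead by their smallest daily gap between replicates, on the log2 scale, the leading genes included *Pcdhga11* (2.53), *Id1* (2.48), *A2m* (2.15) and *Matn4* (2.11). *Id1*, an inhibitor of differentiation, peaked on Day 1 at 38.6 FPKM in replicate 2 and 4.47 FPKM in replicate 1, unlike *Gfap*.

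A further list held 30 genes read in astrocytes or their precursors. Of the 29 tested, 10 were higher in replicate 2 on 4 of 4 days, against 7.63% of all genes, and 4 were higher in replicate 1. The 4 of highest FPKM were *Vim*, *Fabp7*, *S100b* and *Atp1b2*, none of which was higher in replicate 2 on all days. *Vim*, the filament gene of glial progenitors, fell from 1980 to 488 FPKM in replicate 1 and from 1617 to 450 FPKM in replicate 2. *S100b*, a calcium-binding protein also made in the OL lineage, was higher in replicate 1 on every day, with 266 against 110 FPKM on Day 3. *Aldh1l1*, an astrocyte enzyme gene named here after its values were seen, was at 1.27, 0, 1.06 and 0.594 FPKM in replicate 1 and at 6.34, 7.35, 7.55 and 8.12 FPKM in replicate 2. *Glul*, which encodes glutamine synthetase and was likewise named after its values were seen, was between 98.0 and 335 FPKM, and the replicates overlapped.

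Among 22 genes of reactive astrocytes, *Gfap* included, 11 passed the filter, and 5 of the 11 were higher in replicate 2 on 4 of 4 days, against 7.63% of all genes. *Gfap*, which was chosen for that gap, was 1 of the 5. *Serpina3n*, the second of the list by mean FPKM after *Vim*, was between 389 and 886 FPKM, with replicate 1 higher on 3 of 4 days. Of 12 genes of CNTF and LIF receptor signalling, 11 were tested. *Stat3* was between 76.9 and 111 FPKM, and *Cntfr*, the CNTF receptor subunit, was at 24.1, 26.5, 19.3 and 38.5 FPKM in replicate 1 and at 10.6, 6.26, 12.4 and 56.0 FPKM in replicate 2, lower in replicate 2 on all days but Day 3. In that list 1 gene, *Stat3*, was higher in replicate 2 on all days, against 7.63% of all genes, and 3 were higher in replicate 1. The share of all genes higher in replicate 1 on all days was not computed, so the counts for replicate 1 in any of the lists have no background. Of 12 transcription factors of astrocyte fate, 11 were tested. On all days 2 of them were higher in replicate 2, against 7.63% of all genes, and 1 was higher in replicate 1. The latter was *Id3*, while *Nfia* and *Nfix* were each higher in replicate 2 on 2 of 4 days. *Sox9* was 1 of the 2 higher in replicate 2. *Sox9* was at 27.5 and 69.0 FPKM on Day 0 and at 4.42 and 9.82 FPKM on Day 3, and with the replicate number as a block, as explained later, its log2 level fell by 2.54 (SE 0.22, adjusted p = 9.26e-05 from limma). Of 8 neuronal genes tested, 1 was higher in replicate 1 and 1 in replicate 2 on all days, where 7.63% of all genes were higher in replicate 2. The first was *Tubb3*, a neuronal tubulin and the most abundant of the list, at 60.2, 75.7, 128 and 231 FPKM in replicate 1 and at 20.8, 38.6, 58.4 and 113 FPKM in replicate 2. The other was *Dcx*, a gene of migrating young neurons, at 0.582, 2.27, 1.19 and 1.02 FPKM in replicate 1 and at 11.0, 14.1, 5.19 and 2.44 FPKM in replicate 2. The part of neurons or other cells in the gap between the replicate numbers was not tested.

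Days were then compared in limma, on the same log2 scale and over the same 12208 genes, with Benjamini-Hochberg adjustment over all of them and a call at an adjusted p under 0.05. On this scale changes of weakly expressed genes are understated. In the model without the replicate number, the gap between the replicates enters the error. From Day 0 to Day 3 none of the 9 genes was called by limma, nor did any reach an unadjusted p under 0.05, while 38.2% of all genes were called. *Gfap* changed by 1.76 with an SE of 1.75 (adjusted p = 0.457 from limma). The day means hide the course, as *Gfap* on Day 3 was at 324 ± 394 FPKM (SD, n = 2).

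With the replicate number as a block, which compares each library with those of its own number, *Gfap*, *Aqp4*, *Pla2g7*, *Apoe* and *Slc4a4* rose from Day 0 to Day 3. *Apoe* rose by 1.84 (SE 0.26, adjusted p = 8.36e-04), *Gfap* by 1.76 (SE 0.17, adjusted p = 1.26e-04) and *Aqp4* by 1.62 (SE 0.22, adjusted p = 7.35e-04) in limma. *Pla2g7* rose by 1.57 (SE 0.26, adjusted p = 0.00188) and *Slc4a4* by 1.18 (SE 0.28, adjusted p = 0.0103). *Gja1* changed by 1.87 with an SE of 0.72 and was not called (adjusted p = 0.0665). It was called without Day 1 replicate 1 (adjusted p = 0.0457), Day 1 replicate 2 (0.0475) or Day 3 replicate 1 (a change of 3.09, adjusted p = 0.00842). Without Day 0 replicate 2 the change was 1.09 (adjusted p = 0.413) and without Day 3 replicate 2 it was 0.66 (adjusted p = 0.501), so the size of this change rests on single libraries. *Slc1a2* (0.34, adjusted p = 0.360, called without Day 3 replicate 1 at 0.83 with an adjusted p of 0.0430), *Aldoc* (0.31, adjusted p = 0.198) and *Slc1a3* (-0.45, adjusted p = 0.141) were not called. The 5 of 9 called higher compare with 13.2% of all genes, and 0 of 9 called lower with 29.1%. The median change was 1.57 for the 9 genes and -0.31 for all genes tested. Median ratio scaling of the libraries brought the latter to -0.04. The calls of *Gfap*, *Aqp4*, *Pla2g7* and *Apoe* held without any single library, and *Slc4a4* was not called without Day 0 replicate 2 (1.11, adjusted p = 0.0857) or Day 3 replicate 2 (0.96, adjusted p = 0.0896).

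**Figure D4:**
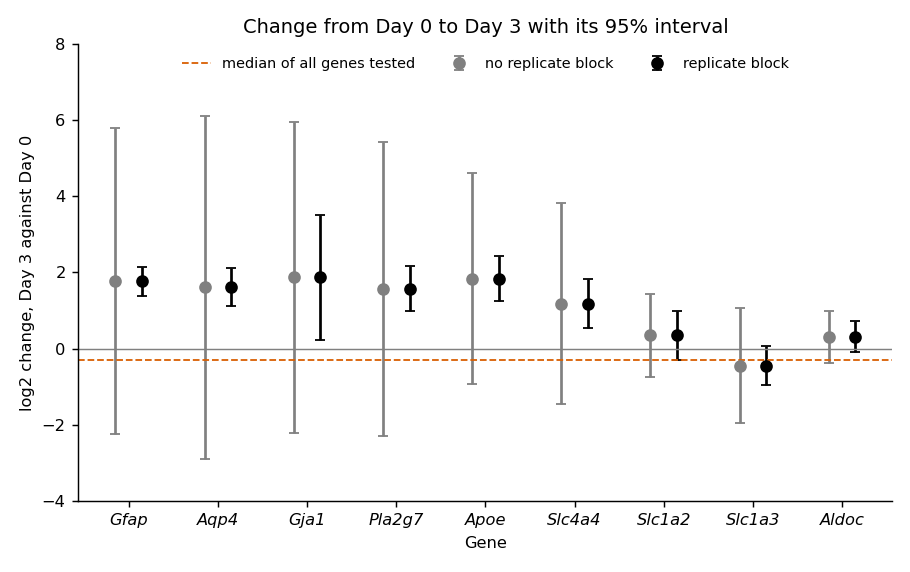
log2 change from Day 0 to Day 3 (vertical axis) of the 9 genes with its 95% interval from limma, in grey without and in black with the replicate number as a block, and the median of all genes tested as a dashed line at -0.31. With the block the intervals of *Gfap*, *Aqp4*, *Gja1*, *Pla2g7*, *Apoe* and *Slc4a4* lie above 0, and those of *Slc1a2*, *Slc1a3* and *Aldoc* include it.

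The steps between days differed among the genes. From Day 0 to Day 1 none of the 9 was called by limma without the block, with 1 (*Aldoc*) at an unadjusted p under 0.05, against 12.6% of all genes called. With the block, *Gfap* rose by 1.02 (SE 0.17, adjusted p = 0.00451 from limma) and *Aldoc* by 0.71 (SE 0.18, adjusted p = 0.0327), among 6.09% of all genes called higher. *Slc1a3* fell by 1.15 (SE 0.22, adjusted p = 0.0104), among 9.01% of all genes called lower. *Slc1a2*, at -0.84, missed the threshold (adjusted p = 0.0874). *Aqp4*, *Pla2g7*, *Slc4a4* and *Gja1* changed by 0.12, -0.26, -0.19 and 0.23 in this step and were not called. These first-step calls were lost without single libraries, *Gfap* without Day 0 replicate 2 (0.85, adjusted p = 0.0666) and *Slc1a3* without Day 0 replicate 1 (-0.82, adjusted p = 0.101) or Day 1 replicate 2 (-1.08, adjusted p = 0.0873). *Aldoc* lost its call without any of 5 libraries, with values of 0.46 to 0.85.

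From Day 1 to Day 2 none of the 9 was called by limma without the block, with 0 at an unadjusted p under 0.05 (3.89% of all genes were called). With it *Aqp4* rose by 1.01 (SE 0.22, adjusted p = 0.0346 from limma), among 6.58% of all genes called. Leaving out Day 0 replicate 2 or any library of Day 1 or Day 2 lost this call, with values of 0.94 to 1.08 and an adjusted p of 0.0524 to 0.273. From Day 2 to Day 3 none of the 9 was called by limma without the block (0.295% of all genes) or with it (1.34%), with 0 and 6 of the 9 at an unadjusted p under 0.05. *Pla2g7* (1.13, adjusted p = 0.0766), *Apoe* (1.05, adjusted p = 0.0885) and *Slc4a4* (1.02, adjusted p = 0.110) had the largest changes of the 9 in that step with the block. Without Day 1 replicate 1 or Day 1 replicate 2, *Apoe* was called in it (adjusted p = 0.0437 and 0.0446).

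Straight lines on the day, fitted to each replicate number, gave the rate of the rise. In replicate 2 the log2 level rose by 1.19 per day for *Gja1* (adjusted p = 0.0132 from limma) and 0.66 for *Aqp4* (0.0210 adjusted). It rose by 0.63 for *Gfap* (0.0157 adjusted) and 0.62 for *Apoe* (0.0381 adjusted), where 3.92% of all genes were called higher. *Pla2g7* (0.64, 0.0733 adjusted), *Slc4a4* (0.47), *Slc1a2* (0.32), *Aldoc* (0.080) and *Slc1a3* (0.023) were not called there. *Gja1* passed the filter through its replicate 2 libraries alone, so its slope there and the difference of its slopes given below support nothing further. In replicate 1 none of the 9 was called by limma, with 3 at an unadjusted p under 0.05, against 2.21% of all genes called higher. The slopes there were 0.57 for *Apoe* (0.0712 adjusted), 0.52 for *Aqp4* (0.0659 adjusted) and 0.45 for *Gfap* (0.0613 adjusted). The slopes themselves were not shown to differ between the replicate numbers. The test of that difference called 0% of all genes in limma, with 232 of 12208 genes at an unadjusted p under 0.05. For *Gfap* the slope of replicate 2 exceeded that of replicate 1 by 0.17 per day with a 95% interval of -0.20 to 0.54. For *Gja1* the difference was 1.11 per day with a 95% interval, for this gene alone, of 0.47 to 1.76. It was not called over all genes (adjusted p = 0.99995 from limma). The replicate 1 line of *Gja1* rests on 0 or 1 fragments per library, so the size of this difference depends on the added constant. With a pseudocount of 0.1 it was 0.90.

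The ratio to *Gfap* was tested last. Without the block, the change of the ratio from Day 0 to Day 3 called 0% of all genes in limma, with 61 of 12207 genes at an unadjusted p under 0.05. With the block, *Gfap* itself rose, which lowers the ratio of any gene that did not change. The share of all genes whose ratio fell was not computed. The ratio changed, in either direction, for 82.9% of all genes when each gene was tested on its own residuals. It fell for *Slc1a3* by 2.21 (SE 0.16, adjusted p = 0.00886, a linear model in limma without variance moderation), for *Aldoc* by 1.45 (SE 0.28, adjusted p = 0.0220) and for *Slc1a2* by 1.42 (SE 0.29, adjusted p = 0.0233). *Slc4a4* fell by 0.58 (SE 0.14, adjusted p = 0.0325), a call that was lost with variances moderated across genes by limma (adjusted p = 0.169). The ratios of *Aqp4*, *Pla2g7*, *Apoe* and *Gja1* changed by -0.15, -0.19, 0.075 and 0.11. None of these was called, and their 95% intervals were -0.61 to 0.31, -0.69 to 0.30, -0.89 to 1.04 and -2.87 to 3.09. The interval of *Gja1* is too wide to speak of a fixed ratio. For *Aqp4*, *Pla2g7* and *Apoe* the lack of a call does not show a fixed ratio either. The block removes the mean difference in share between the replicate numbers, and the change compares Day 0 with Day 3 only. The mean log2 ratio of *Apoe* was 0.27 in replicate 1 and -0.87 in replicate 2. All ratios share the *Gfap* values. *Slc1a3* missed the threshold without Day 0 replicate 2, Day 3 replicate 1 or Day 3 replicate 2, *Aldoc* and *Slc4a4* without any library of Day 0, Day 1 or Day 3, and *Slc1a2* without any of the 8 libraries. The adjusted p then lay between 0.0543 and 0.157 and the direction was unchanged in these 4 genes. With a pseudocount of 0.1 the fall of *Slc4a4* also missed the threshold (-0.37, adjusted p = 0.0506).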

How the data were processed

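The mRNA of mouse primary OPCs was sequenced in 8 libraries, 2 per day on Day 0 to Day 3, from stranded mRNA libraries sequenced from both ends (75 nt) on a MiSeq. Using OmicSoft ArrayStudio, the authors made and deposited a table of FPKM with a column per library and no pooling. The submitters' processing notes name the build mm10, while aligner, gene model and strand setting are not given in the sources used here. DESeq2, which the authors' methods name, needs counts and was not used.

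The 12208 genes that reached 1 FPKM in 2 or more libraries were tested on log2(FPKM + 1) with lmFit and eBayes (trend) of limma 3.58.1, run in R 4.3.3, all 8 libraries in 1 model with day as a factor, and Benjamini-Hochberg adjustment over all genes at 0.05. Since 2 libraries per day bear on each value, p-values without the block measure only the spread between these cultures. With the block they measure only the spread left after the mean difference between the replicate numbers is removed. The model was also run on simulated data with known changes. There the replicate effects were far smaller than that of *Gfap* and the changed genes were not near 0, so the run does not cover these genes. Other steps used Python 3.11.15 (scipy 1.17.1, matplotlib 3.10.9, pandas 2.3.3, numpy 2.4.6). Coordinates came from GENCODE M21 and promoters from RefSeq, both GRCm38.

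Replicate numbers came from the labels. Over the 6 pairs of days, the replicate differences correlated across genes, which are not independent replicates, at r = 0.16 to 0.29, so the numbers were taken to pair the libraries. Neither labels nor methods tie libraries of the same number to the same isolation. Ratios to *Gfap* all contain its residuals, which misleads the variance moderation across genes, so with the block they were tested on each gene's own residuals, a choice made after seeing the data.

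Depth was estimated from steps between low FPKM values. Fragments were recovered only for *Aqp4*, *Pla2g7* and *Gja1*, whose values all lay within 0.15 of a whole number, and 3 fragments were taken as the limit of measurement. Intervals on fragments are exact, at 95%, and cover counting error only.

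The members, lists and tests were chosen with earlier results of these data known. Named genes were the 9 members, the 5 other genes (FPKM of at least 10 in 1 library) nearest to *Gfap*, the 5 with the largest smallest replicate gap (X-inactivation and Y-linked genes left out), at most 4 of highest mean FPKM per list, and 4 lineage markers. A gene that this rule names is not reported here. Alternatives were a pseudocount of 0.1, no filter, FPKM of at least 10 in 1 library, the replicate block, scaling to equal FPKM sums or by median ratios, quantile normalization, only the days compared, eBayes without trend and each library left out. Combinations with the block were added after seeing the data.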

Additional observations from a re-analysis of the deposited data

How the results depend on the processing

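The replicate block moved the calls most. Of the 9 genes it called 5 from Day 0 to Day 3, 3 from Day 0 to Day 1, 1 from Day 1 to Day 2 and 3 for the ratio to *Gfap* with moderated variances, where the model without it called 0. Under every other planned setting these 4 counts stayed at 0, and all 9 genes stayed higher in replicate 2 on every day. Without the block, leaving out a library unbalances the replicates, and the change from Day 0 to Day 3 then ran from -0.086 to 3.61 for *Gfap*, -0.44 to 3.67 for *Aqp4*, -0.23 to 3.37 for *Pla2g7*, -0.70 to 4.44 for *Gja1*, -0.12 to 2.48 for *Slc4a4*, 0.55 to 3.13 for *Apoe*, -0.42 to 1.10 for *Slc1a2*, -1.28 to 0.39 for *Slc1a3* and -0.090 to 0.72 for *Aldoc*. With the block and each library left out, 4 to 7 of the 9 were called from Day 0 to Day 3, 1 to 4 from Day 0 to Day 1, 0 to 1 from Day 1 to Day 2, 0 to 1 from Day 2 to Day 3 and 0 to 3 for the ratio, and *Slc1a2* ranged from -0.14 to 0.83 from Day 0 to Day 3. The ratio to *Gfap* then ranged from -0.20 to 0.35 for *Apoe* and from -1.01 to 1.23 for *Gja1*. With the block, a pseudocount of 0.1 turned the ratio of *Aqp4* to 0.16 and of *Pla2g7* to 0.084, and median ratio scaling that of *Gja1* to -0.036. Median ratio scaling brought the median change of all genes from Day 0 to Day 3 from -0.31 to -0.04 and split all calls into 2135 higher and 2047 lower, against 1460 and 3207. With the block it called 6 of the 9 higher, *Aldoc* being added (0.63, adjusted p = 0.0274 from limma). Where no cause is named, the cause was not tested. Depth limits *Gja1*, *Pla2g7*, *Aqp4* and *Slc4a4* in replicate 1, and 2 libraries per day limit every comparison.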
